A study of Mus musculus with 8 samples.

Results

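Drug metabolism in the mouse small intestine was followed through 5 gene families, taken by gene symbol from the deposited crypt and villus tables: cytochrome P450 (Cyp), glutathione S-transferase (Gst), UDP-glucuronosyltransferase (Ugt), sulfotransferase (Sult) and carboxylesterase (Ces). A symbol had to open with Cyp, Ugt, Sult or Ces and a digit, or with Gst and a letter. This gave 89 genes, of which 76 were among the 11554 genes of the crypt table and 88 among the 12701 genes of the villus table, and 75 were in both. By family, the crypt table held 31 Cyp, 20 Gst, 9 Ugt, 6 Sult and 10 Ces genes, and 38, 21, 10, 6 and 13 were in the villus table. The annotation GENCODE M21 holds 185 protein-coding genes of these families, so 96 were in neither table. The smallest mean of any listed gene was 48.4 normalized counts in crypts and 8.82 in villi, the latter with both Ctrl columns, which were identical, included.

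These families carry out the chemical steps by which drugs, dietary compounds, bile acids, steroids and fatty acids are made soluble and removed. In the first phase, P450 enzymes oxidise the compound and carboxylesterases split its ester or amide bonds. In the second phase, a group is attached: glutathione by Gst enzymes, glucuronic acid by Ugt enzymes and sulfate by Sult enzymes. In the small intestine this is mostly the work of absorptive enterocytes, which form the villus surface, whereas crypts hold stem, Paneth and dividing progenitor cells.

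Both groups of C57BL/6 mice were sampled 1 month after tamoxifen had been given for 5 days. Gli1-PtgscKO mice carried Gli1-CreERT2 with floxed Ptgs1 and floxed Ptgs2, the genes of the cyclooxygenases COX1 and COX2. By the study's account they were bred from Gli1-CreERT2 mice that also carried a Rosa26-tdTomato reporter. Ctrl mice were wild type for Ptgs1 and Ptgs2 with Gli1-CreERT2 and a Rosa26-tdTomato reporter by the sample labels, but floxed for both without Cre by the study's own description. The age of the animals is not given in the sources used here. Cre acts in Gli1-expressing mesenchymal cells, so the epithelium that expresses the drug metabolism genes did not itself carry the deletion. Each genotype had 2 crypt and 2 villus libraries, but the Ctrl villus columns were identical in every gene and were counted as 1 library.

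Reads on listed genes ranged from 16853017 to 21121714 in the 4 crypt libraries and from 13477600 to 15751024 in the 3 villus libraries. Scaled to 1000000 reads per library (CPM), the summed level of 10 enterocyte markers was 5838 to 8294 in crypts and 30609.6 to 37243 in villi, and that of 8 stem cell markers 5181 to 5897 in crypts and 202 to 453 in villi. The liver, whose cells are rich in these enzymes, was hardly represented: 1 of 8 liver markers was listed in crypts, at 4.90 to 17.8 CPM, and 3 in villi, at 4.67 to 6.29 in sum. Ptgs1 read 365 and 164 normalized counts in Ctrl crypts and 178 and 199 in Gli1-PtgscKO crypts, and Ptgs2 and Gli1 were not among the listed genes, so these epithelial tables do not check the deletion. The tables give normalized counts, the gene count divided by a size factor of the library. In these bulk samples, fewer cells of a type and less RNA per cell cannot be told apart.

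The 5 families together took 0.542% and 0.706% of the reads of the Ctrl crypt libraries and 1.14% of those of the Ctrl villus library. Levels of different genes were compared per kilobase of their longest transcript and per 1000000 reads on listed genes (RPKM), with the mean of the 2 Ctrl libraries in crypts. Among P450 genes, Cyp4f14, a fatty acid and eicosanoid hydroxylase, was the most abundant, at 105 and 158 RPKM in Ctrl crypts and 349.6 RPKM in Ctrl villi. Cyp3a13, of the drug-oxidising 3A subfamily, came next in crypts with 52.4 and 83.9 RPKM, and Cyp2d26 in villi with 194 RPKM. The 2 leading genes held only 25.0% of the summed Cyp level in crypts and 35.2% in villi.

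The other families were led more strongly by a few genes. Ces2e, Ces2c and Ces2a, of the intestinal Ces2 subfamily, held 73.0% of the Ces level in crypts and 85.6% in villi. Ces2e alone read 172 and 227 RPKM in Ctrl crypts and 535 RPKM in Ctrl villi. Gsto1, an omega-class transferase that also reduces arsenic and dehydroascorbate, stood at 390.0 and 390.1 RPKM in Ctrl crypts and 744 RPKM in Ctrl villi. Gstp1, the pi-class enzyme, followed at 314 and 267 RPKM in crypts and 711 RPKM in villi, but 52.8% of the 100-base windows of its longest transcript also occur in other genes' transcripts, those of Gstp2 and Gstp-ps, so its reads could be split between near-identical genes.

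Ugt2b34 led the Ugt family with 109 and 152 RPKM in Ctrl crypts and 69.8 RPKM in Ctrl villi. Second place went to Ugt2b35 in crypts, at 26.8 and 34.4 RPKM, and to Ugt2a3 in villi, at 40.0 RPKM, next to Ugt1a7c at 39.7 RPKM. Sult1d1 and Sult1b1, which sulfate phenols and catecholamines, were first and second in crypts, with 98.8 and 133 RPKM and with 64.8 and 74.5 RPKM. In villi Sult1b1 came first at 211 RPKM, followed by Sult2b1, a hydroxysteroid and cholesterol sulfotransferase, at 182 RPKM. At the low end, Cyp4f17 in villi read 0.0700 RPKM and Ugt1a6a 0.123 RPKM, from 3 and 6 reads.

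Within the Ctrl mice, crypts and villi were set side by side for the 75 genes in both tables, as CPM on the 11227 genes the tables share, with no test because Ctrl villi were 1 library. The villus value lay above both crypt values for 46 genes and below both for 21, where 21.4% of all shared genes lay above and 73.6% below. By family, the villus was higher for 19 of 30 Cyp, 16 of 20 Gst, 3 of 9 Ugt, 3 of 6 Sult and 5 of 10 Ces genes. The median log2 difference, villus minus crypt, was 0.85 for Cyp, 0.92 for Gst, −0.0042 for Ugt, 0.52 for Sult and 0.15 for Ces, beside −1.06 for all shared genes. With a correction for transcript length the medians were 0.40, −0.19, −0.52, 0.11 and 0.020 beside −1.01, so the sign of the Gst value turned, although each family stayed above the median of all genes.

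Sult2b1 differed most toward the villus, with 29.9 and 30.3 CPM in crypts and 339 in villi, an 11.3-fold difference. Cyp1a1, which oxidises polycyclic aromatic compounds, read 2.51 and 3.37 in crypts and 19.3 in villi, 6.56-fold higher. Gstm6, a mu-class transferase, read 21.02 and 24.4 against 101, and Ces2a 109 and 212 against 521. Genes at the other end were of low abundance in villi, with Cyp39a1, an oxysterol hydroxylase, at 28.2 and 35.3 CPM in crypts and 2.55 in villi. Sult1c2 read 10.6 and 14.98 CPM in crypts and 1.10 in villi, Ces1c 9.87 and 12.04 against 0.963, and Gstcd, a protein with a transferase-like domain, 26.6 and 23.8 against 3.99. Ugt1a6a, a phenol glucuronosyltransferase, read 3.22 and 2.99 in crypts against 0.413 in villi, and Cyp4f17 read 2.61 and 3.37 against 0.206, the villus values coming from 6 and 3 reads.

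**Figure D1:**
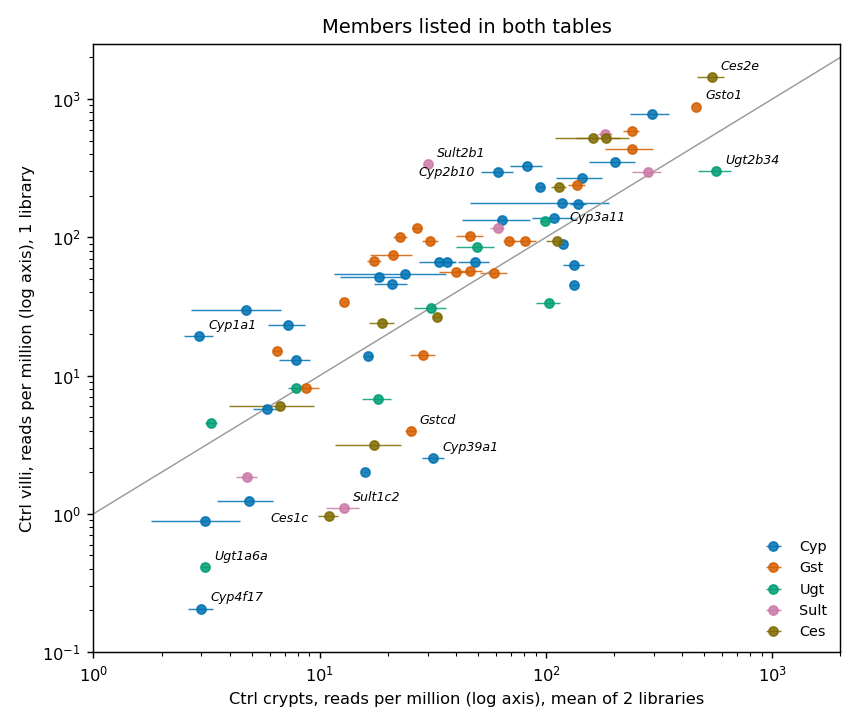
Levels of the 75 genes in both tables in Ctrl mice. The horizontal axis gives CPM in Ctrl crypts (log axis; point, mean of 2 libraries; bar, the 2 values), the vertical axis CPM in the 1 Ctrl villus library (log axis), and the line marks equal levels; Sult2b1 and Cyp1a1 lie above the line, and Sult1c2, Ces1c and Cyp4f17 below it.

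To ask whether loss of Ptgs1 and Ptgs2 in the mesenchyme changed these genes in crypts, the 2 Gli1-PtgscKO libraries were compared with the 2 Ctrl libraries by limma-trend on log2(normalized count + 1). None of the 76 genes passed the study's threshold, an unadjusted p under 0.01 with an absolute log2 fold change over 1. Over all 11554 genes, 20 (0.173%) passed it upward and 1 (0.00866%) downward, and none (0.0%) had a Benjamini-Hochberg adjusted p under 0.05. Only Gsta1 and Gsta4, alpha-class transferases that act on products of lipid peroxidation, had an unadjusted p under 0.05 (73 of all genes, 0.632%). Both Gli1-PtgscKO libraries lay above both Ctrl libraries for 13 of the 76 genes, beside 9.73% of all genes, and below both for 1, Cyp4f40, beside 11.3%. Without Gli1-PtgscKO replicate 2, 5 genes passed upward (Gsta1, Gsta3, Gsta4, Gstp3 and Sult1c2), beside 5.13% of all genes, and without Ctrl replicate 2 only Gsta1 passed, beside 0.182%.

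Gsta1 and Gsta4 had the largest crypt log2 fold changes of the 76 genes. Gsta1 (chr9:78230656-78242684) read 733 and 997 normalized counts in Ctrl and 3635 and 1351 in Gli1-PtgscKO crypts. Gsta4 (chr9:78182774-78209349) read 1282 and 1722 in Ctrl and 4992 and 2257 in Gli1-PtgscKO crypts. Gsta3, on chromosome 1, read 182 and 141 against 410.2 and 193. In each of the 3 genes the groups did not overlap, and Gli1-PtgscKO replicate 1 stood far above replicate 2. The log2 fold changes were 1.37 ± 0.47 (SE) for Gsta1, 1.18 ± 0.40 for Gsta4 and 0.81 ± 0.45 for Gsta3, each with a limma adjusted p of 0.9996, as for every other gene of the families in crypts. Without replicate 1 of Gli1-PtgscKO, the values of Gsta1 and Gsta4 were 0.66 and 0.60.

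Of the sequence of Gsta1, 81.8% of 100-base windows recur in other transcripts, those of Gm3776, Gsta2 and Gm10639, so its counts could be shared with them. Gm3776 read 237 and 408 normalized counts in Ctrl crypts and 1016 and 575 in Gli1-PtgscKO crypts. Gsta4 and Gsta3 shared no window with another gene. The same libraries differed in other ways. All 5 listed stomach markers, of a list of 8 of which Tff1, Atp4a and Atp4b were not listed, passed the threshold upward, and their summed level was 1327 and 1673 CPM in Ctrl and 5174 and 3379 in Gli1-PtgscKO crypts, and that of 6 Paneth markers was 24721 and 20450.1 against 35334 and 20457, with replicate 1 highest in both. The part of these markers in the Gsta values was not tested.

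Gsta1 and Gsta3 lay apart in the genome yet were both higher, so the 250 bases before their start sites are shown from RefSeq on GRCm38.p6, 5′ to 3′ on the gene's strand. The windows are chr9:78230419-78230668 (+) for Gsta1 and chr1:21240335-21240584 (+) for Gsta3. Capitals mark a match to TGACNNNGC, the core of the antioxidant response element, searched on both strands.
Gsta1: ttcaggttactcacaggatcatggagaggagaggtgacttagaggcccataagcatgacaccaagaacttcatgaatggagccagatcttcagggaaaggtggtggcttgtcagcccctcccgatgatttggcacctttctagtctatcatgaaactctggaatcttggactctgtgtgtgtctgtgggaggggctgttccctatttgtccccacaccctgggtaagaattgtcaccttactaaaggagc
Gsta3: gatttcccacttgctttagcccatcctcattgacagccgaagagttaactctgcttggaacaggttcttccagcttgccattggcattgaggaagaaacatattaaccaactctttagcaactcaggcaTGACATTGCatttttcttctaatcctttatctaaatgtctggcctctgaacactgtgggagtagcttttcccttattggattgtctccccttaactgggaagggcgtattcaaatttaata
The Gsta3 window held 1 match, 121 to 113 bases before the start, and the Gsta1 window none. The core occurred in 10.2% of the 32851 promoter windows of all genes and in 3 of the 77 members with an entry, Gsta3, Gstm5 and Cyp4f18. The longest run of bases the 2 windows share was 9.

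The other crypt Gst genes differed less. Of the 20 Gst genes, 8 were higher in both Gli1-PtgscKO libraries, beside 9.73% of all genes, and none lower, beside 11.3%, with a median log2 fold change of 0.24 beside −0.010 for all genes. These were the 3 alpha-class genes, the mu-class genes Gstm1, Gstm4, Gstm6 and Gstm7, and Gstp3. Gstp3 read 113 and 129 in Ctrl and 314 and 136 in Gli1-PtgscKO crypts, 0.77 ± 0.49, again with replicate 1 far above. Gstm6 read 385 and 464 against 516 and 519, with close Gli1-PtgscKO libraries. The family median was 0.50 in replicate 1 alone and 0.031 in replicate 2 alone.

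Transcript length moved with the crypt differences. For genes with a longest transcript of up to 1000 bases, the median of all genes was 1.03 in Gli1-PtgscKO replicate 1 and −0.16 in replicate 2, each relative to Ctrl. Gst transcripts are short, with a median of 1235.5 bases against 3399 for all genes. After each library was corrected for transcript length, the Gst median turned to −0.034, while Gsta1, Gsta4 and Gsta3 kept values of 0.99, 0.82 and 0.77. Over all 76 genes, 8 then lay higher in both Gli1-PtgscKO libraries, beside 12.9% of all genes, and 4 lower, beside 14.8%.

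**Figure D2:**
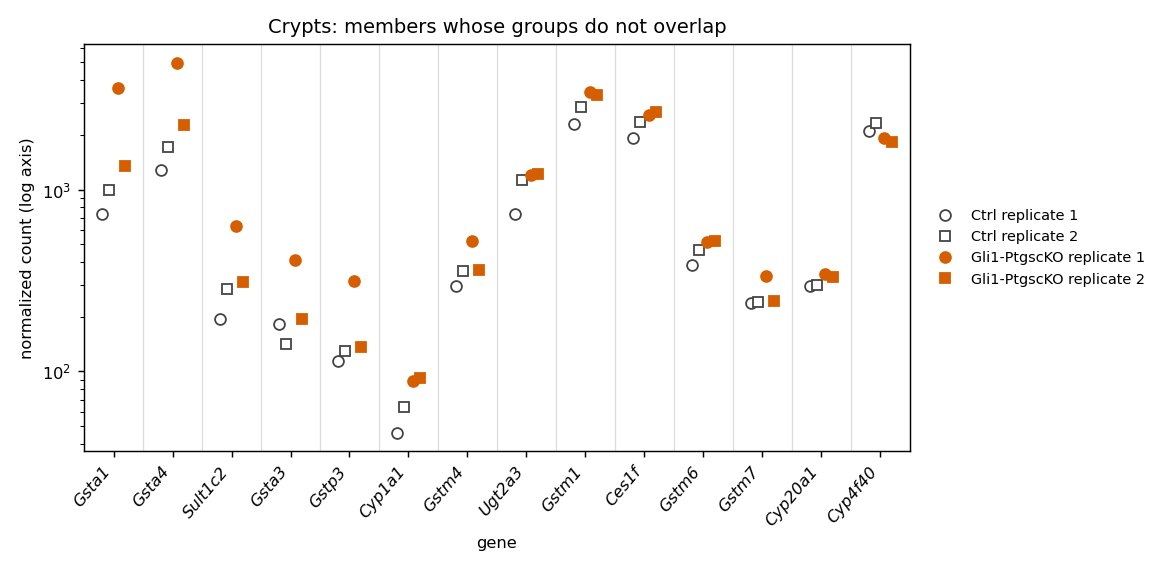
Normalized counts (vertical log axis) of the 14 genes whose groups do not overlap in crypts, ordered by log2 fold change. Open symbols are Ctrl and filled symbols Gli1-PtgscKO libraries; circles are replicate 1 and squares replicate 2. Gsta1, Gsta4, Gsta3, Gstp3 and Sult1c2 have a high replicate 1 of Gli1-PtgscKO, whereas Cyp1a1 and Gstm6 have close Gli1-PtgscKO libraries.

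Among the crypt P450 genes, 28 of 31 had overlapping groups, beside 9129 of all 11554 genes. Of the others, 2 were higher, beside 9.73% of all genes, and 1 lower, beside 11.3%. The median log2 fold change was 0.081. Cyp1a1 (chr9:57687928-57703824) read 45.9 and 63.9 in Ctrl and 88.1 and 91.6 in Gli1-PtgscKO crypts, a difference of 0.72 ± 0.50. Cyp20a1, a P450 of unassigned substrate, read 295 and 297 against 343 and 329.7. Cyp4f40 was lower in both, with 2104 and 2312 against 1919 and 1826, −0.24 ± 0.23.

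Several crypt P450 genes varied more within a genotype than between genotypes. Cyp3a11, the main drug-oxidising P450 of mouse liver and gut, read 849 and 3589 in Ctrl and 1237 and 3281 in Gli1-PtgscKO crypts, so that the Ctrl libraries differed 4.23-fold from each other. Cyp3a25 read 776 and 1615 against 1016 and 1682, and Cyp3a13 read 2845 and 4716 against 2799 and 3309. The enterocyte markers summed to 5838 and 8294 CPM in the same Ctrl libraries and 6029 and 7199 in the Gli1-PtgscKO libraries, higher in the libraries with high Cyp3a11. Their part in the spread was not tested.

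In the remaining crypt families the groups overlapped for 9 of 10 Ces, 8 of 9 Ugt and 5 of 6 Sult genes, beside 9129 of all 11554 genes. The other gene of each was higher, beside 9.73% of all genes. Sult1c2, a phenol sulfotransferase, read 195 and 284 in Ctrl and 631 and 309.5 in Gli1-PtgscKO crypts, 0.91 ± 0.43. Ugt2a3 read 733 and 1123 against 1204 and 1219, and Ces1f 1923 and 2338 against 2566 and 2654. Their log2 fold changes were 0.42 ± 0.29 and 0.30 ± 0.24. The family medians were 0.21 for Ces, 0.12 for Ugt and 0.26 for Sult. Without replicate 1 of Ctrl the Ces median was −0.16 and the Cyp median −0.25.

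For the villi the same comparison was made with the 3 distinct libraries. The lone Ctrl library was taken to vary like the Gli1-PtgscKO libraries, which left 1 residual degree of freedom a gene. At the study's threshold 4 of the 88 genes rose, Cyp3a11, Cyp3a25, Cyp4f17 and Ces1d, and 5 fell, Sult2b1, Gstp1, Gstp2, Gstp3 and Gstt2. Of these, edgeR did not call Gstt2 and DESeq2 did not call Cyp4f17. Over all 12701 genes, 1247 (9.82%) passed upward and 850 (6.69%) downward, and neither count exceeded what those shares give for 88 genes. An adjusted p under 0.05 was reached by 17 genes, 5 higher and 12 lower, beside 34.8% of all genes. Scaling by library size alone gave 9 higher and 1 lower, with 22.3% and 1.25% of all genes, on a scale where the median log2 fold change of all genes was 0.42. Correction for transcript length gave 7 higher and 1 lower, with 5.38% and 2.98% of all genes.

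The marker lists also differed between the villus libraries. Of the 9 immune markers, 1 passed the threshold upward, beside 9.82% of all genes, and 4 downward, beside 6.69%. The 9 summed to 1441 CPM in Ctrl and 597 and 578 in Gli1-PtgscKO villi. Cd74, Igkc and Lyz2, all among the lower ones, had the highest Ctrl counts of the list. The marker that passed upward was Ptprc, at 200 normalized counts against 608 and 722, while Cd3e and Cd8a overlapped. The enterocyte markers summed to 34087 CPM against 37243 and 30609.6. Of the 8 stem cell markers, 5 were higher in both Gli1-PtgscKO libraries, beside 43.7% of all genes, and 2, Smoc2 and Prom1, lower, beside 44.2%. Only 1 of them passed the threshold upward, beside 9.82%, and the 8 summed to 202 CPM against 453 and 343. The 6 Paneth markers summed to 427 against 851 and 533, and the 5 listed stomach markers to 4.39 against 30.6 and 12.5. On the CPM scale of these sums the median log2 fold change of all genes was 0.42. In normalized counts 4 of the 6 Paneth markers were higher in both Gli1-PtgscKO libraries, beside 43.7% of all genes. The other Paneth markers, Defa17 and Defa24, overlapped. The part of the marker lists in the results below was not tested. Both Gli1-PtgscKO libraries lay above the Ctrl library for 35 of the 88 genes, beside 43.7% of all genes, and below it for 33, beside 44.2%. After length correction these counts were 46, beside 41.0%, and 20, beside 43.7%.

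**Figure D3:**
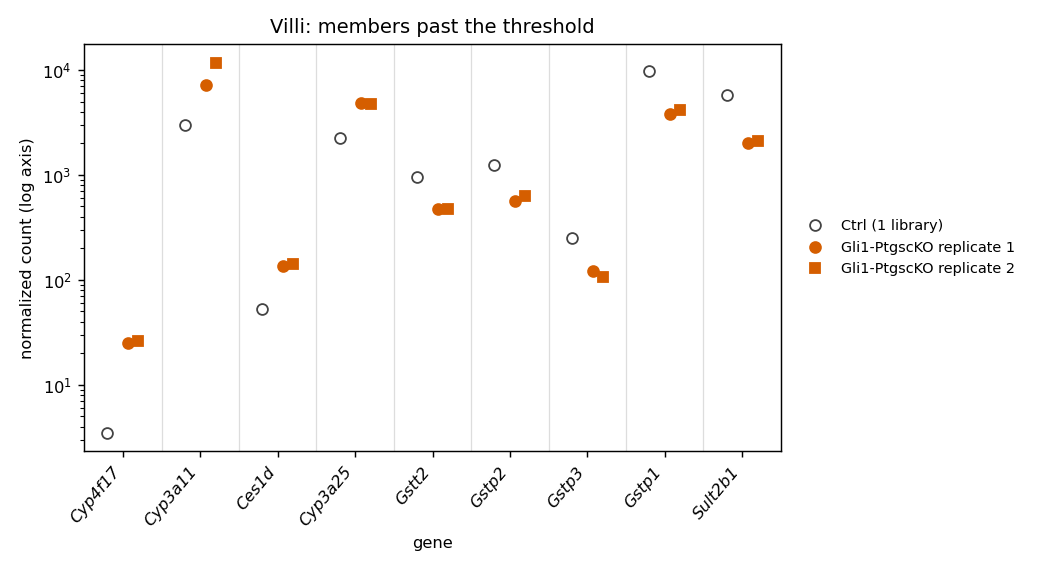
Normalized counts (vertical log axis) of the 9 genes past the threshold in villi. The open circle is the 1 Ctrl library, and the filled circle and square are Gli1-PtgscKO replicates 1 and 2. The Gli1-PtgscKO libraries lie close together for all of them except Cyp3a11, where 7111 and 11779 both exceed 2969.

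Cyp3a11 and Cyp3a25 rose in villi. Cyp3a11 (chr5:145854426-145879964) read 2969 in Ctrl and 7111 and 11779 in Gli1-PtgscKO villi, a log2 fold change of 1.62 ± 0.30 (SE, limma, adjusted p = 0.0126). Cyp3a25 (chr5:145977194-146009618) read 2229 against 4844 and 4789, 1.11 ± 0.15 (adjusted p = 0.00767). Their neighbour Cyp3a59 read 5.79 against 21.4 and 15.5, from 5 Ctrl reads, and did not pass (adjusted p = 0.101). Cyp3a13, which lies elsewhere on chromosome 5, read 5945 against 8513 and 6890.4, 0.37 ± 0.19 (adjusted p = 0.188). The increase of Cyp3a11 and Cyp3a25 held under edgeR, DESeq2, library size scaling and length correction. In the crypts of the same genotype the groups had overlapped for all 3 listed Cyp3a genes, as for 9129 of all 11554 genes.

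The windows before the start sites of Cyp3a11 and Cyp3a25 are shown because both genes rose. The xenobiotic receptors PXR (Nr1i2) and CAR (Nr1i3) bind hexamers such as AGGTCA and AGTTCA in pairs. The windows are chr5:145879855-145880104 (−) for Cyp3a11 and chr5:146009619-146009868 (−) for Cyp3a25, from RefSeq on GRCm38.p6. Capitals mark single matches to AGGTCA or AGTTCA on either strand. The search set no rule on the spacing or orientation of a pair, and receptor binding was not tested.
Cyp3a11: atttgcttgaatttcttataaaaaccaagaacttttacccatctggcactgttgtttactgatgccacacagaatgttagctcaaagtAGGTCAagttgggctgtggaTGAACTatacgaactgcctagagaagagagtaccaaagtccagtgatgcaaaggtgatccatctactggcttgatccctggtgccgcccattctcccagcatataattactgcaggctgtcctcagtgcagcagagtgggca
Cyp3a25: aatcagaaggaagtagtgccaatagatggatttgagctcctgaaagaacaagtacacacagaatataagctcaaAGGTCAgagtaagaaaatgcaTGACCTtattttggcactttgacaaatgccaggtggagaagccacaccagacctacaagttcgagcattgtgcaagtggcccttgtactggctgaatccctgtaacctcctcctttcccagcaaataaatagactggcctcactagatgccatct
Cyp3a11 held AGGTCA 162 to 157 bases and AGTTCA, on the other strand, 142 to 137 bases before the start. Cyp3a25 held AGGTCA 176 to 171 bases and again, on the other strand, 155 to 150 bases before the start. AGGTCA occurred in 14.0% of all promoter windows and in 15 of the 77 members with an entry, and AGTTCA in 11.8% and in 11. The longest run the 2 windows share was 10 bases. Of the receptor genes, Nr1i2 read 2235 in Ctrl and 1883 and 1954 in Gli1-PtgscKO villi, and Nr1i3 read 159.9 against 158 and 114, and neither passed an adjusted p of 0.05.

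Cyp4f17 showed the largest fold change and rested on few reads. It read 3.48 normalized counts in Ctrl and 25.2 and 26.1 in Gli1-PtgscKO villi, from 3, 33 and 27 reads. The ratio was 7.37 with an exact 95% interval of 2.40 to 36.7, which covers counting error only. The fitted log2 fold change was 2.57 ± 0.55 (limma, adjusted p = 0.0182), and DESeq2 gave an unadjusted p of 0.0311, which did not pass.

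Of the 5 other Cyp4f genes in the same cluster on chromosome 17, 1 was higher in both Gli1-PtgscKO libraries and 4 lower. Of all genes, 43.7% lay higher and 44.2% lower. Cyp4f15 read 15.1 in Ctrl and 31.3 and 21.2 in Gli1-PtgscKO villi, without passing. Cyp4f16 read 3912 in Ctrl and 2481 and 2158 in Gli1-PtgscKO villi, −0.76 ± 0.17 (limma, adjusted p = 0.0189), and was the only P450 gene to pass the adjusted threshold downward. Of all genes, 17.4% passed it downward, and Cyp4f16 did not pass it with length correction or with library size scaling. Cyp4f14, the most abundant, read 13121 against 12988 and 9692, and Cyp4f40 1509 against 1296 and 904. Cyp4f18, on chromosome 8, had the lowest fold change, −1.56 ± 0.95, with 23.2 against 3.06 and 15.5 normalized counts, and leaving out either Gli1-PtgscKO library gave −0.55 or −2.57.

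Over all 38 villus P450 genes, 18 were higher in both Gli1-PtgscKO libraries, near the 43.7% of all genes, 10 lower, beside 44.2%, and 10 overlapping, and the median log2 fold change was 0.20, or 0.37 with length correction. Of the 7 Cyp2c genes, which include arachidonic acid epoxygenases, 4 were higher, beside the same 43.7%, 1 lower and 2 overlapping. Cyp2c66 read 1121 against 1512 and 1615, 0.48 ± 0.15 (limma, adjusted p = 0.0542), and Cyp2c65 2304 against 3116 and 2891. After length correction both passed at an adjusted p of 0.029 and 0.0378. Cyp1a1, whose groups did not overlap in crypts, read 324 in Ctrl and 419.7 and 174 in Gli1-PtgscKO villi, so the groups overlapped.

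Among carboxylesterases, Ces1d (chr8:93166068-93197838), a triacylglycerol hydrolase, was the only gene past the threshold. It read 53.3 in Ctrl and 135 and 142 in Gli1-PtgscKO villi, 1.36 ± 0.23 (limma, adjusted p = 0.0102). Ces1c, its neighbour, read 16.2 against 17.6 and 22.2, while Ces1e, Ces1f and Ces1g were each lower in both libraries without passing. In the abundant Ces2 subfamily, Ces2e read 24382 against 17589 and 14190.4, −0.63 ± 0.22 (adjusted p = 0.0693), Ces2c 8763 against 7698 and 6950.3, and Ces2a 8767 against 8312 and 10849. The family median of −0.23 turned to 0.093 with length correction and to 0.20 with library size scaling.

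Glutathione S-transferases made up 4 of the 5 genes that fell, where 6.69% of all genes passed downward. With length correction only Sult2b1 of the 5 still passed the study's threshold. Gstp1 (chr19:4035407-4037985) read 9868 in Ctrl and 3811 and 4155 in Gli1-PtgscKO villi, −1.31 ± 0.16 (limma, adjusted p = 0.0075). Gstp2 read 1252 against 566 and 636, −1.06 ± 0.16, and Gstp3 251 against 122 and 106, −1.14 ± 0.21. Gstt2, a theta-class enzyme on chromosome 10, read 958 against 469 and 477, −1.02 ± 0.16. The adjusted p values of the last 3 were 0.00868, 0.0127 and 0.00863. The Gli1-PtgscKO libraries lay close together in each of these genes, below the Ctrl value.

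Lower values extended over much of the family. Of 21 villus Gst genes, 13 were lower in both Gli1-PtgscKO libraries, beside 44.2% of all genes, 4 higher, beside 43.7%, and 4 overlapping. After length correction 9 were higher, beside 41.0% of all genes, and 9 lower, beside 43.7%. Of the 21, 10 passed an adjusted p of 0.05, all lower, where 17.4% of all genes passed downward. With length correction only Gstt2 of them stayed past it, while Gsta1 and Gsta4 passed upward, where 15.9% of all genes passed in either direction. With library size scaling 6 Gst genes passed lower and 4 higher, where 43.7% of all genes passed in either direction. DESeq2 did not call Gstm4, Gstm5 and Gstz1. The 10 genes were the 3 Gstp and 3 Gstt genes, Gsto1, Gstz1, Gstm4 and Gstm5. Gsto1, the most abundant, read 14859.7 against 6823 and 8551, −0.96 ± 0.20 (limma, adjusted p = 0.0176). The family median was −0.58 beside −0.0063 for all genes, −0.15 with library size scaling and −0.020 with length correction.

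Villus fold changes followed transcript length in the opposite sense to crypts. The median of all genes was −0.86 for transcripts up to 1000 bases and 0.66 for those over 5000 bases, with Spearman's rho of 0.54 across 12698 genes, which share libraries and are not independent replicates. Gstp transcripts are 708 to 821 bases long. With length correction Gstp1 stood at −0.51, Gstp2 at −0.24 and Gstp3 at −0.20, and none passed the threshold. Gstt2, with 2254 bases, stood at −0.75 (adjusted p = 0.0374 in limma), and the Sult2b1 change of −1.48 at −1.09 (adjusted p = 0.0274). The part of transcript length in these changes was not tested beyond this correction.

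**Figure D4:**
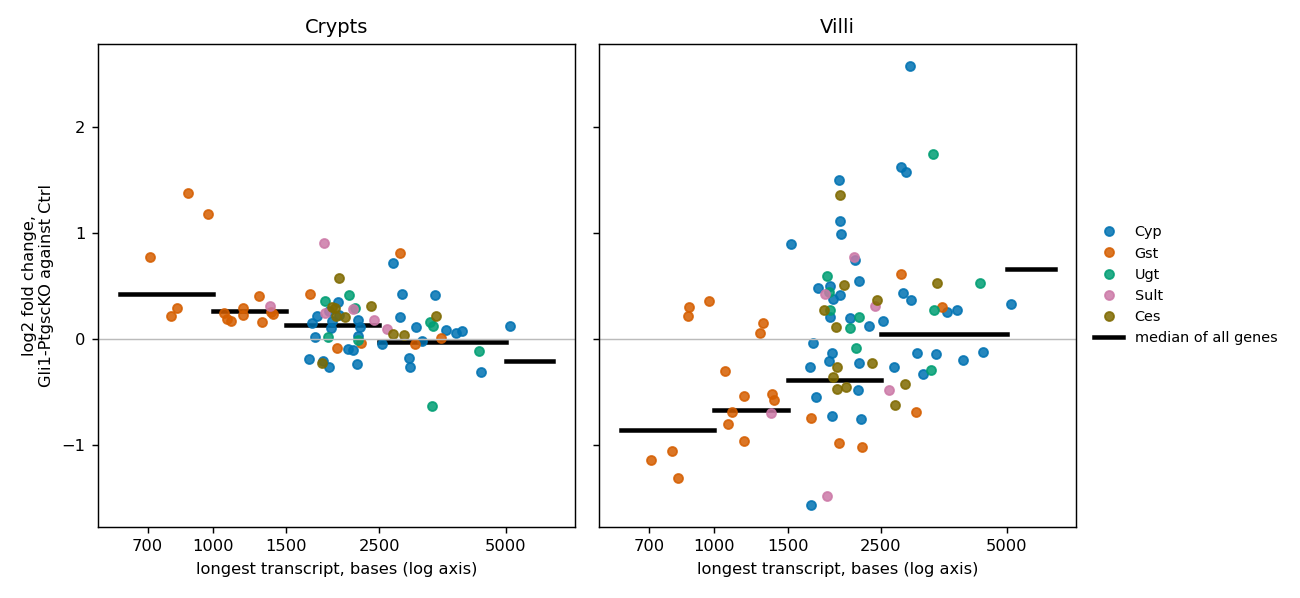
Log2 fold change, Gli1-PtgscKO against Ctrl, of each drug metabolism gene (points, coloured by family) against the length of its longest transcript (log axis), in crypts and villi. Black bars are the medians of all genes in 5 length classes, which fall with length in crypts from 0.43 to −0.20 and rise in villi from −0.86 to 0.66.

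Of the 4 Gst genes higher in both Gli1-PtgscKO libraries, 3 were of the alpha class and the fourth was Gstcd, at 67.2 against 81.0 and 84.996. Gsta1 read 1729 in Ctrl and 2426 and 1869 in Gli1-PtgscKO villi, Gsta4 1581 against 1691 and 2441, and Gsta3 138 against 192 and 233. Each was higher in both libraries, and none passed, with log2 fold changes of 0.30 ± 0.20, 0.36 ± 0.24 and 0.61 ± 0.22 and adjusted p values of 0.278, 0.277 and 0.0721 (limma). With length correction Gsta1 and Gsta4 passed the threshold at 1.05 and 1.07 (adjusted p = 0.0415 and 0.0395). Gsta2 overlapped, at 112 against 78.8 and 215.

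The proximal windows of Gstp1 and Gstp2 are shown because both fell and because their transcripts are so alike. They are chr19:4037913-4038162 (−) and chr19:4042222-4042471 (−), from RefSeq on GRCm38.p6, and capitals mark GCGTG, the core bound by the dioxin receptor Ahr with Arnt, on either strand.
Gstp1: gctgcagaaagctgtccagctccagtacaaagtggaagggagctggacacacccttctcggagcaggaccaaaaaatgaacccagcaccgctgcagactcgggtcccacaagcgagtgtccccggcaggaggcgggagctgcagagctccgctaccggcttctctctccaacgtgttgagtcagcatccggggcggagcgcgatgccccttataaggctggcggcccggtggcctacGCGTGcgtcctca
Gstp2: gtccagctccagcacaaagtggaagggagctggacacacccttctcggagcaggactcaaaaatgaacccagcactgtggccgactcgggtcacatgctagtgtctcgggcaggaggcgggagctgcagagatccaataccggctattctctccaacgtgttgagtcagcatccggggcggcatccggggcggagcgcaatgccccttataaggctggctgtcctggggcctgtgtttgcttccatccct
The longest run in common was 43 bases, and 88 of the 239 distinct words of 12 bases in the Gstp1 window recurred in that of Gstp2. The Gstp1 window held 1 GCGTG, 13 to 9 bases before the start, and the Gstp2 window none, where 28.2% of all promoter windows and 16 of the 77 members with an entry held it.

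No glucuronosyltransferase passed the threshold in villi. Of the 10 Ugt genes, 6 were higher in both Gli1-PtgscKO libraries and none lower, beside 43.7% and 44.2% of all genes, and the family median was 0.27. Ugt2b34 read 5088 in Ctrl and 8478 and 6307 in Gli1-PtgscKO villi, 0.52 ± 0.22 (limma, adjusted p = 0.113). Ugt2b35 read 564 against 819.6 and 566, and Ugt2a3 1432 against 1766 and 1333, so that the second Gli1-PtgscKO library was near Ctrl in both. Ugt1a6a read 6.95 against 42.1 and 15.5, 1.74 ± 0.70 (adjusted p = 0.102), from 6 Ctrl reads. The Ugt1a genes share their last exons, and 35.1% to 68.8% of the windows of the 4 listed ones occur in other transcripts.

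Sulfotransferases moved in both directions in villi. Sult2b1 (chr7:45729983-45784669) read 5713 in Ctrl and 1992 and 2104 in Gli1-PtgscKO villi, −1.48 ± 0.15 (limma, adjusted p = 0.00736), and was the only gene lower at the threshold under length correction and under library size scaling. Sult6b2 read 1968 against 3518 and 3229.8, 0.78 ± 0.16 (adjusted p = 0.0149), and passed the study's threshold with either of these settings. Sult1b1 read 9328 against 6372 and 7041, and Sult1d1 5034 against 5811 and 6705, neither past an adjusted p of 0.05. Of the 6 genes 3 were higher, beside 43.7% of all genes, and 3 lower, beside 44.2%. Their median was −0.084, and turned to 0.20 with length correction and 0.35 with library size scaling.

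**Figure D5:**
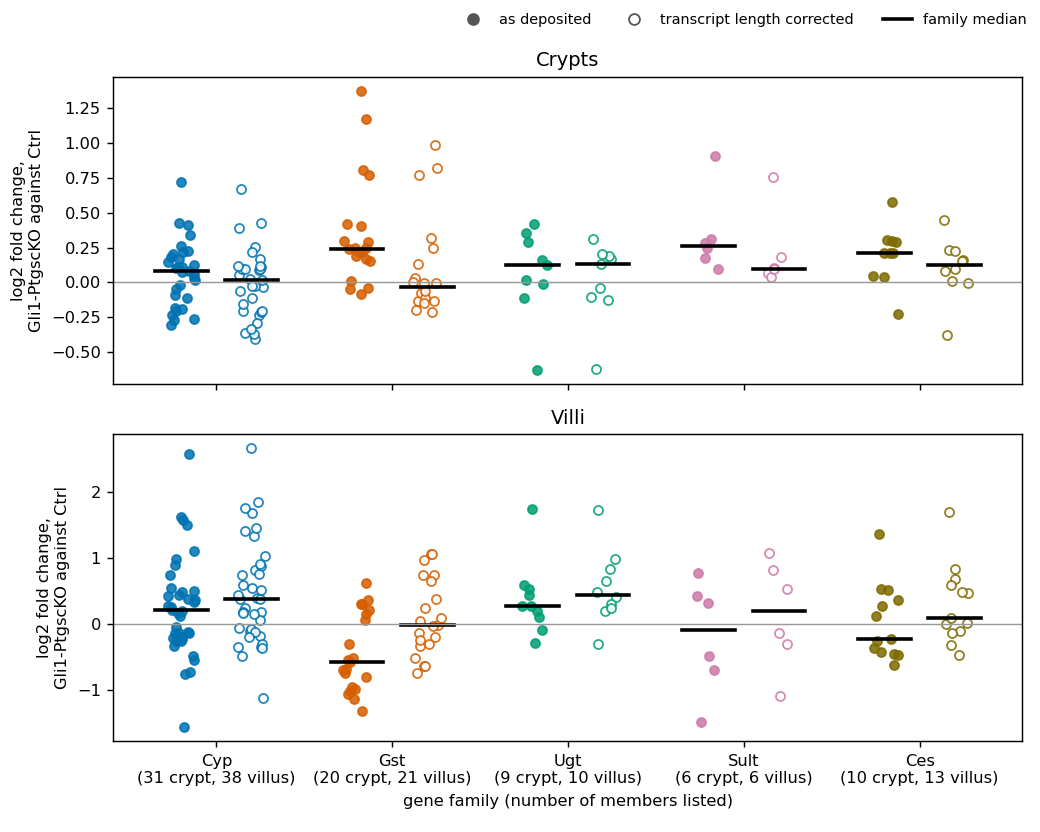
Log2 fold change (vertical axis, Gli1-PtgscKO against Ctrl) of each gene by family in crypts and villi. Filled points use the deposited values, open points the values corrected for transcript length, and bars are family medians. In villi the Gst median moves from −0.58 to −0.020 and the Cyp median from 0.20 to 0.37.

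By reads, the P450 genes took 0.354% of the Ctrl villus library and 0.605% and 0.496% of the Gli1-PtgscKO libraries, and the Ugt genes 0.0602% against 0.124% and 0.0811%. The Ces share was 0.287% against 0.329% and 0.281%, the Sult share 0.131% against 0.147% in both, and the Gst share 0.313% against 0.263% and 0.330%. Only the Cyp, Ugt and Sult shares were thus higher in both Gli1-PtgscKO libraries, on a scale where the median of all genes was also higher. In crypts the Cyp share was 0.162% and 0.234% in Ctrl and 0.175% and 0.204% in Gli1-PtgscKO libraries, and the groups overlapped for each family except Gst, at 0.156% and 0.167% against 0.223% and 0.173%.

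Most of these genes lie in clusters. With neighbours at most 500 kilobases apart and at least 3 genes, 62 of the 89 fell into 13 clusters on mm10. The cluster of Cyp3a11, Cyp3a25 and Cyp3a59 (chr5:145854426-146113287) had 3 of 3 genes higher in both Gli1-PtgscKO villi, where 43.7% of all genes lay higher and 44.2% lower, with log2 fold changes of 1.11 to 1.62. The Gstp cluster (chr19:4035407-4059569) had 3 of 3 lower, from −1.31 to −1.06, as had the Gstt cluster (chr10:75774115-75837424), from −1.02 to −0.69. The Cyp4a10, Cyp4a32 and Cyp4b1 cluster (chr4:115518264-115647723) had 3 of 3 higher, from 0.20 to 0.89, none past a threshold. In the Ces1 cluster (chr8:93056728-93337308) 2 genes were higher and 4 lower, and in the Cyp4f cluster (chr17:32506050-32947402) 2 were higher and 4 lower. The cluster of the Ugt2 genes with Sult1b1 and Sult1d1 (chr5:86889767-87569027) had 5 higher, 1 lower and 2 overlapping in villi.

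Of the 14 genes whose groups did not overlap in crypts, 6 lay on the same side in villi and 5 on the opposite side. Over all villus genes, 43.7% lay higher than Ctrl in both Gli1-PtgscKO libraries and 44.2% lower, so either side was common. On the same side were Gsta1, Gsta3, Gsta4, Sult1c2, Cyp20a1 and Cyp4f40. On the opposite side were Gstp3, Gstm4, Gstm6, Gstm7 and Ces1f, each higher in Gli1-PtgscKO crypts and lower in Gli1-PtgscKO villi. With length correction, the crypt and villus log2 fold changes were 0.99 and 1.05 for Gsta1, 0.82 and 1.07 for Gsta4, and 0.77 and 0.74 for Gsta3. Those of Gstm6 were −0.0046 and 0.089, those of Gstm7 0.0047 and 0.048, and those of Ces1f 0.16 and 0.0091, while Gstp3 and Gstm4 kept opposite signs, at 0.32 and −0.20 and at 0.24 and −0.30.

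Genes that supply or control these enzymes were described by lists. A list of 15 genes held electron partners of P450 and the supply of glutathione, glucuronic acid and sulfate donors. Of these, 3 were higher in both Gli1-PtgscKO crypt libraries, beside 9.73% of all genes, and none lower, beside 11.3%. The median crypt log2 fold change was 0.063. In villi 4 were higher, beside 43.7% of all genes, and 9 lower, beside 44.2%, with a median of −0.43. None passed the study's threshold. In villi 3 of 15 passed an adjusted p of 0.05, beside 34.8% of all genes: Gss, glutathione synthetase, read 2153 against 1152 and 1082 (−0.95 ± 0.15, limma, adjusted p = 0.00913), Ugp2, which makes UDP-glucose, 997 against 1445 and 1493, and Gclc, the rate-limiting enzyme of glutathione synthesis, 531 against 765 and 788. Por, the electron donor of microsomal P450 enzymes, read 4844 against 4153 and 3098 without passing.

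Of 13 regulators, 11 were in the crypt table, where 2 were higher, beside 9.73% of all genes, and none lower, beside 11.3%. None passed, and the median was −0.010. In villi 7 were higher, beside 43.7% of all genes, and 6 lower, beside 44.2%, with a median of 0.12, and 4 of 13 passed an adjusted p of 0.05, beside 34.8%. Ahr read 77.6 in Ctrl and 185 and 191.2 in Gli1-PtgscKO villi, 1.27 ± 0.21 (limma, adjusted p = 0.00943). It was the only regulator past the study's threshold, beside 9.82% of all genes upward. With length correction its log2 fold change was 0.80, under the fold cut of that threshold. Tiparp, a target gene and repressor of Ahr, read 153 against 310.4 and 269 (adjusted p = 0.0177), Hnf4g 2331 against 3957 and 3457 (adjusted p = 0.0273), and Arnt 338 against 494 and 487 (adjusted p = 0.0483).

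Of 17 efflux transporters and other conjugating or oxidising enzymes, 16 were in the crypt table and 15 in the villus table. In crypts 2 were higher, beside 9.73% of all genes, and 1 lower, beside 11.3%, with a median of −0.036. In villi 7 were higher, beside 43.7% of all genes, and 5 lower, beside 44.2%, with a median of 0.037. Nqo1, a quinone reductase, was the only one with an unadjusted p under 0.05 in crypts, at 897 and 901 against 1722 and 1217 (0.69 ± 0.27). In villi 2 of 15 genes rose past the study's threshold, both transporters, beside 9.82% of all genes. Abcb1a, a P-glycoprotein gene, read 749 in Ctrl and 4153 and 2710.2 in Gli1-PtgscKO villi, 2.16 ± 0.26 (limma, adjusted p = 0.00749). Abcc2, which exports conjugates, read 1557 against 5315 and 3706, 1.51 ± 0.24 (limma, adjusted p = 0.00895). With length correction the log2 fold changes were 1.79 for Abcb1a and 0.72 for Abcc2, the latter under the fold cut of the threshold.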

How the data were processed

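RNA-seq was deposited for small intestinal crypts and villi of Ctrl and Gli1-PtgscKO mice. The authors aligned paired-end reads with STAR to mm10 and normalized gene counts with DESeq2, and the values deposited are signal on that scale, counts divided by size factors. The counting program, annotation and strand setting are not given in the sources used here. The labels and the study's methods name different extraction and library kits. Columns with the authors' own comparison (mean, fold change, standard error, statistic and p-values) were not used. The 2 Ctrl villus columns held equal values and were counted as 1 library. The study's methods call the 2 samples of a group biological replicates. No deposited column was left without a sample.

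Genes were chosen by symbol, and the genes and lists were chosen with earlier results of these data known. Each table was fitted whole with limma 3.58.1 (limma-trend, log2 of the normalized count + 1, which understates changes of low genes), with 2 residual degrees of freedom in crypts and 1 in villi. A gene with a mean of at least 1 was tested, which left out none. A call was an unadjusted p under 0.01 with an absolute log2 fold change over 1. Adjusted p-values are Benjamini-Hochberg over all genes of the table. In crypts and villi the values of each library were whole multiples of 1 step, taken as 1 read, within a tolerance of 0.0001 reads. On the villus reads, edgeR 4.0.16 and DESeq2 1.42.0 were run as alternatives. Length correction subtracted from each library a lowess curve (span 0.3) of log2 value on log10 longest transcript length in GENCODE M21. Levels are reads per kilobase of longest transcript per 1000000 reads on listed genes. The fits were checked on simulated data. Genes named in each family were the 2 with the highest Ctrl level in each tissue, those past the call threshold, those with the largest non-overlapping fold change in each direction (2 in crypts, 1 in villi), and the largest and smallest ratio of Ctrl villus to Ctrl crypt level. Other genes were named to complete a subfamily or after their values were seen. Intervals cover counting error only.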

Additional observations from a re-analysis of the deposited data

Results flagged for a closer look

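In 5 genes both Gli1-PtgscKO libraries lay above Ctrl in the crypt table but below it in the villus table. Of all villus genes, 44.2% lay below Ctrl in both libraries. The difference between the tissues was not tested. The villus minus the crypt log2 fold change was −1.91 for Gstp3, −1.17 for Gstm4, −0.83 for Gstm6, −0.77 for Gstm7 and −0.66 for Ces1f. Gstp3 read 113 and 129 normalized counts in Ctrl and 314 and 136 in Gli1-PtgscKO crypts, and 251 in Ctrl and 122 and 106 in Gli1-PtgscKO villi. With correction for transcript length the crypt and villus values were 0.32 and −0.20 for Gstp3, 0.24 and −0.30 for Gstm4, −0.0046 and 0.089 for Gstm6, 0.0047 and 0.048 for Gstm7, and 0.16 and 0.0091 for Ces1f. The tables were normalized separately, and the Ctrl villus value is 1 library.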

How the results depend on the processing

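No called value changed sign under the alternatives run. Of the counts and family medians, 136 alternative values stayed close to the reported one and 28 moved. With the replicate block, 2 crypt genes passed the threshold upward, Gsta1 and Gsta4, beside 0.545% of all genes, and 2 reached an adjusted p under 0.05 (limma), beside 0.294%. With length correction added to the block none passed, and the Gst crypt median was −0.034, as with length correction alone. The 2 pairs of crypt libraries with the same number had deviations correlated at 0.25, and the labels do not say what the number shares. Both replicate 2 libraries lay above both replicate 1 libraries for 24 of 76 genes, beside 26.4% of all genes, and for 13 of 31 Cyp genes. No paired analysis was possible for villi because Ctrl was 1 library. In villi, length correction gave 7 genes higher and 1 lower at the threshold, beside 5.38% and 2.98% of all genes. It gave 11 with an adjusted p under 0.05 (limma), beside 15.9%. Library size scaling gave 9, 1 and 36, beside 22.3%, 1.25% and 43.7%. Family medians in villi moved with length correction to −0.020 for Gst, 0.20 for Sult and 0.093 for Ces, and with library size scaling to 0.64 for Cyp, −0.15 for Gst, 0.35 for Sult and 0.20 for Ces. The Ctrl villus minus crypt medians with length correction were 0.40 for Cyp, −0.19 for Gst, −0.52 for Ugt and 0.11 for Sult. Leaving out 1 library at a time gave 0 to 5 crypt genes past the threshold upward and 0 to 7 with an adjusted p under 0.05, with crypt medians of −0.25 to 0.22 for Cyp, 0.031 to 0.50 for Gst and −0.16 to 0.48 for Ces. The highest Gst median came without Gli1-PtgscKO replicate 2. In villi, leaving out a library gave values without a test. The planned DESeq2 and edgeR fits of the crypt table were not run. The cause of these moves was not tested. Depth limits the 10 villus genes with under 10 reads in a library.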
